A study of Mus musculus with 6 samples.

Results

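Chromosome 11 of the mouse was followed across lung endothelial cells that lack or carry Dnmt3a. Its members were all 1 kb tiles that the authors placed on this chromosome, 103246 of 1954255 autosomal tiles (5.28%). The chromosome was singled out because its mean KO minus WT difference was the largest loss among the 19 autosomes, so every value of that contrast is given as a description and no test of it is offered. Endothelial cells were sorted by flow cytometry from lungs of Dnmt3a knockout mice (KO, 3 samples) and wild-type mice (WT, 3 samples), and their DNA was read by tagmentation-based whole-genome bisulfite sequencing. The labels call the genotypes ko and wt only. They give no allele, Cre driver, age or number of animals. Nothing says that samples of one genotype come from separate mice, and the spread behind each p-value may then be technical. The files hold a methylation level per tile and no read counts, so the depth behind each value is unknown.

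DNMT3A is a de novo DNA methyltransferase that adds methyl groups to cytosines in CpG pairs. Most CpGs of a mammalian genome are methylated, while CpG-dense gene starts and the broad domains around developmental regulators stay almost free of methylation; such stretches are called methylation valleys, and their edges are known from blood cells to erode when DNMT3A is lost. Mouse chromosome 11 is known for a high density of genes and carries the HoxB cluster. A tile was called a valley tile here if its mean level in the WT samples was under 10%.

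The labelled cell type was compared with its markers. The starts of 7 measured endothelial marker genes averaged 7.42% methylated in KO and 11.01% in WT samples, and 6 of them were under 20% in WT. The starts of 5 measured leukocyte markers averaged 62.7% in KO and 69.8% in WT samples, none of them under 20% in WT. Among other cell types, the 3 epithelial starts averaged 28.7% in KO and 45.5% in WT samples. The 2 mesenchymal starts averaged 24.3% in KO and 30.7% in WT samples, and that of Pdgfra was nearly unmethylated, at 0.759% in KO and 1.39% in WT samples. The erythroid start, that of Klf1, stood at 39.7% in KO and 43.8% in WT samples. The body of Dnmt3a itself, on chromosome 12, had 49.1, 49.6 and 51.2% in the KO samples and 66.3, 64.9 and 65.2% in the WT samples; a methylation level does not show whether the gene was deleted, so this does not check the labels.

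The promoter sequences of 5 gene starts named below are shown. They are 4 starts with some of the largest falls, which differ widely in CpG density, and the one start of chromosome 11 that was called higher. Each runs 5′ to 3′ on the strand of its gene, from 250 bases before to 50 bases after the start, as RefSeq gives it for GRCm38.p6, and capitals mark each CpG.
4933428G20Rik, chr11:97500291-97500590, minus strand: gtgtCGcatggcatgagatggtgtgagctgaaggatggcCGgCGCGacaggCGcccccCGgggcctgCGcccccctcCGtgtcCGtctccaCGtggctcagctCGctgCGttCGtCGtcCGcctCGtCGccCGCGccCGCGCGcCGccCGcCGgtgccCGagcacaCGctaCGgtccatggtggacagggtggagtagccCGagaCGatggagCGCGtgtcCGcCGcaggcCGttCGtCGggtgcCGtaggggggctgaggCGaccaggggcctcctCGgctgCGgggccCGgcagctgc
Septin9, chr11:117332063-117332362, plus strand: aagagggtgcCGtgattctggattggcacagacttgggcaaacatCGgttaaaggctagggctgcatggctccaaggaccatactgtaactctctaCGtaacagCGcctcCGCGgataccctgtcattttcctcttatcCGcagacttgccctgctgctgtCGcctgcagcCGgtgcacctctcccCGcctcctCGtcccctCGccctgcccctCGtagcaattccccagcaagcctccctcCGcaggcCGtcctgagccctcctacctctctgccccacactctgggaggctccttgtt
Ebf1, chr11:44619978-44620277, plus strand: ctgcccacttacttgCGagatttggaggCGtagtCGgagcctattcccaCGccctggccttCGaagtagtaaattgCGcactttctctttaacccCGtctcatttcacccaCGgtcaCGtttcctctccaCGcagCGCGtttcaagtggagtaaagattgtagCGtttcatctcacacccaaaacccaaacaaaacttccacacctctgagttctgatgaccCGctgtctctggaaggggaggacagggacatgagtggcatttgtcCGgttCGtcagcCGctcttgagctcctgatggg
Cuedc1, chr11:88169315-88169614, plus strand: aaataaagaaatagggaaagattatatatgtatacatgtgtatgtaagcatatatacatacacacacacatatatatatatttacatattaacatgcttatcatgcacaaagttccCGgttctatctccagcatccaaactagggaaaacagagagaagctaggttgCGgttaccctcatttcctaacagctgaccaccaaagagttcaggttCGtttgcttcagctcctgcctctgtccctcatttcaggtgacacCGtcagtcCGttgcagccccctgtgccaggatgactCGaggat
Grb10, chr11:12027922-12028221, minus strand: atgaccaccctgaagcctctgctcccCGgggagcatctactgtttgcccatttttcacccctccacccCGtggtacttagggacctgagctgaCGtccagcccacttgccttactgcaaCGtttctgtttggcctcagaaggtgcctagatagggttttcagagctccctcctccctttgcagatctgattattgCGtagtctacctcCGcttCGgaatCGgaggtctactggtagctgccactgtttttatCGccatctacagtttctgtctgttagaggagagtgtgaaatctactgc
The 4933428G20Rik promoter has 42 CpGs in 300 bases, Ebf1 has 17, Septin9 has 15, Grb10 has 9 and Cuedc1 has 6. Among all 1561 promoters listed for chromosome 11 the median was 17 CpGs, and 63.7% had at least 10. On the other autosomes 57.4% did.

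The level of chromosome 11 was lower in every KO sample than in any WT sample. It averaged 61.7, 61.9 and 62.1% in the KO samples and 69.0, 68.3 and 68.2% in the WT samples, a KO minus WT difference of -6.59 percentage points (SD of the difference 0.467, n = 3 each). On the other 18 autosomes the KO samples had 63.6, 63.8 and 63.9% and the WT samples 69.6, 68.8 and 68.7%, a difference of -5.29 points. The gap of chromosome 11 to the other autosomes was -1.29 points (SD 0.116). Within a sample, chromosome 11 lay below the other autosomes by -1.84, -1.94 and -1.73 points in KO and by -0.578, -0.564 and -0.500 points in WT samples. The 3 KO values did not overlap the 3 WT values. The autosome with the next largest gap was chromosome 19, at -0.573 points.

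The loss moved tiles between classes of methylation level. Tiles at 80% or more made up 13.5, 13.8 and 13.9% of chromosome 11 in the KO samples and 28.5, 26.1 and 26.5% in the WT samples. Tiles of 10 to 50% made up 16.1 ± 0.440% in KO and 9.24 ± 0.244% in WT samples (SD, n = 3 each). Tiles under 10% numbered 3475, 3572 and 3525 in the KO samples and 2187, 2195 and 2243 in the WT samples. These nearly unmethylated tiles were 3.41% of the chromosome in KO and 2.14% in WT, against 2.04% in KO and 1.35% in WT on the other autosomes.

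Chromosome 11 also differs from the other autosomes in what it holds. It has 13.5 protein-coding genes per Mb, against 8.34 on the others, and within 100 kb around its tiles coding genes cover 49.7% of the bases, against 43.7%. It holds 2177 valley tiles, 2.11% of its tiles, against 1.33%. The median tile lies 40 kb from a valley on chromosome 11 and 75 kb on the others, and 21.6% of its tiles lie within 10 kb of one, against 13.8%. Chromosomes 19, 2 and 9 are nearest to it in gene share, with 50.3, 48.3 and 48.2%, and their KO minus WT differences were -5.92, -5.84 and -5.38 points. Chromosomes 19, 7 and 17 are nearest in share of valley tiles, with 1.87, 1.64 and 1.64%, and differed by -5.92, -5.04 and -5.44 points. Chromosome 7, with 14.3 coding genes per Mb, has more genes per Mb than chromosome 11 and a smaller loss.

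To see how far gene share and valley distance account for the gap, the other autosomes were reweighted to the make-up of chromosome 11. With tiles sorted into 6 strata of gene share in the surrounding 100 kb, the gap shrank to -1.02 points, so 20.9% of it was gone. With 10 strata of distance to the nearest valley it shrank to -0.641 points, and 50.3% was gone. With both, in 60 strata, it was -0.647 points (SD 0.0594), and 49.9% was gone. Gene share thus took nothing further off the gap once distance was in. In level, chromosome 11 lay below the reweighted autosomes by -1.23, -1.29 and -1.17 points in KO and by -0.594, -0.569 and -0.584 points in WT samples. The remaining gap is the contrast between these KO and WT values, which no single sample shows.

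**Figure D1:**
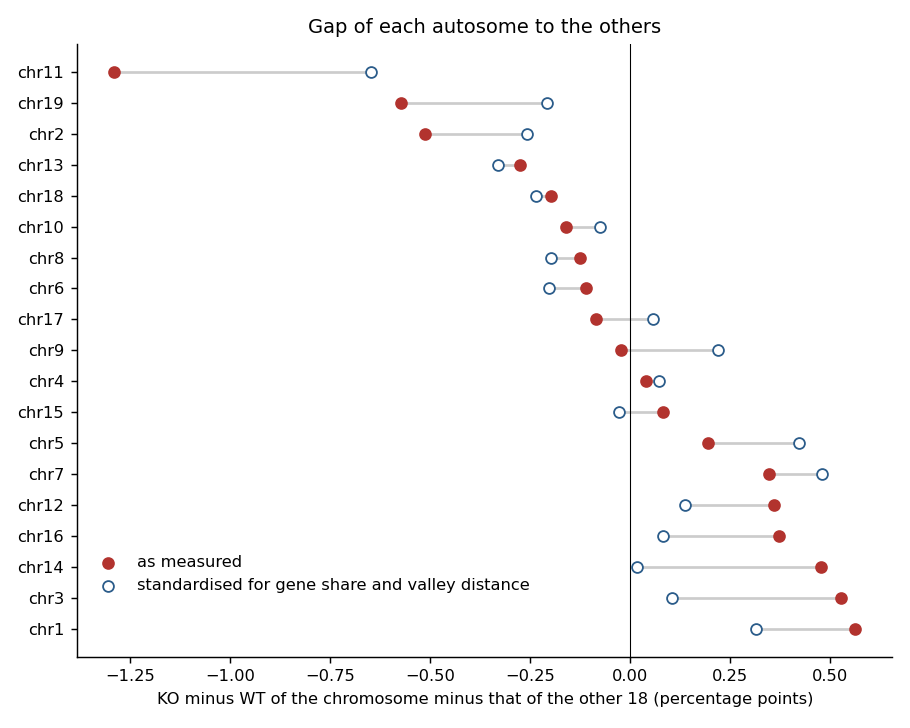
KO minus WT of each autosome minus that of the other 18, in percentage points, as measured (filled) and after reweighting the other 18 to its gene share and valley distance (open). Chromosome 11 stands at -1.29 and -0.647 points, the lowest of the 19 in both.

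Treated in the same way, no other autosome came as low. After reweighting for both, chromosome 13 was next at -0.331 points, then chromosome 2 at -0.258 points, and chromosome 7 was at the other end at 0.478 points. The rank of chromosome 11 was 1 of 19 before and after each reweighting, but the chromosome was chosen for that rank. A linear fit over the 2288 windows of the other autosomes, with gene share and the share of tiles within 10 kb of a valley, left less. The 119 windows of chromosome 11 lay on average 0.279 points further down than it gave, with a mean residual of -0.279. A negative residual was found in 55 of the 119, and in 997 of the 2288 windows to which the line was fitted. The share of the gap left therefore depends on how the 2 properties enter.

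Tiles nearest to valleys lost the most, apart from the valley tiles themselves, which had little methylation to lose. Valley tiles of chromosome 11 averaged 2.51% in KO and 3.63% in WT samples, a difference of -1.11 points, against -1.09 points on the other autosomes. Tiles 1 kb away averaged 34.0 ± 0.43% in KO and 46.4 ± 0.40% in WT samples (SD, n = 3 each), a difference of -12.4 points, against -12.1 points on the others. At 2 to 3 kb the difference was -11.9 points on chromosome 11 and -10.9 points on the others, and at 6 to 10 kb it was -9.08 points on chromosome 11 and -7.88 points on the others. At 51 to 100 kb they were closer, with -6.02 points on chromosome 11 and -5.79 points on the others. Beyond 200 kb they were -2.84 points on chromosome 11 and -2.46 points on the others. The difference between chromosome 11 and the other autosomes was thus widest from 2 to 20 kb, where it ran from -1.04 to -1.20 points. Valleys were defined from the WT samples that also enter the difference.

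**Figure D2:**
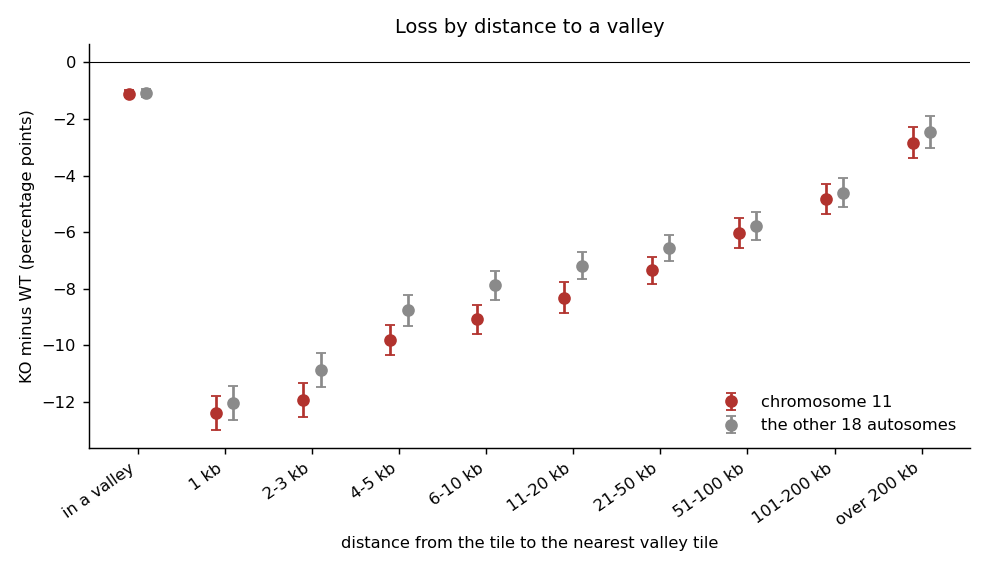
KO minus WT in percentage points by distance of a tile to the nearest valley tile, for chromosome 11 (red) and the other 18 autosomes (grey); bars are the SD of the difference, n = 3 KO and 3 WT. The loss at 6 to 10 kb was -9.08 points on chromosome 11 and -7.88 points on the others.

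The number of valley tiles nearby was looked at after these values were seen. Where 11 to 20 valley tiles lay in the surrounding 100 kb, tiles of chromosome 11 differed by -11.9 points, against -7.33 points on the other autosomes. Where more than 20 did, the 372 tiles of chromosome 11 differed by -10.2 points, against -5.39 points. Where none did, chromosome 11 differed by -4.39 points and the others by -3.88 points. Adding this number as a further stratum left a gap of -0.570 points. Coding gene tiles differed by -7.23 points on chromosome 11 and -6.16 points on the others, and tiles outside coding genes by -5.91 points on chromosome 11 and -4.60 points on the others, so the larger loss of chromosome 11 was present inside and outside genes.

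Along the chromosome the loss was uneven. In 119 windows of 1 Mb, the difference ran between -13.7 and -0.509 points with a median of -6.17. In 115 windows each KO sample was below each WT sample, and in 4 the groups overlapped. Most windows of the other autosomes were alike in this, with 2129 of 2288 below and 159 overlapping. A window was called lower at an adjusted p under 0.05 (limma, Benjamini-Hochberg over all windows) and a difference of at least 5 points. This took in 78 of the 119 windows (65.5%), where 48.4% of all 2407 windows were called; the rule of choice used the same contrast, so nothing is read from that count. A loss of 10 points or more was seen in 15 windows, 12.6% of chromosome 11 and 5.29% of the windows of the other autosomes. Across the 119 windows the difference correlated with gene share at r = -0.477 and with the share of tiles near valleys at r = -0.702; on the other autosomes these were -0.402 and -0.583 over 2288 windows. Neighbouring windows share genes, valleys and libraries.

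**Figure D3:**
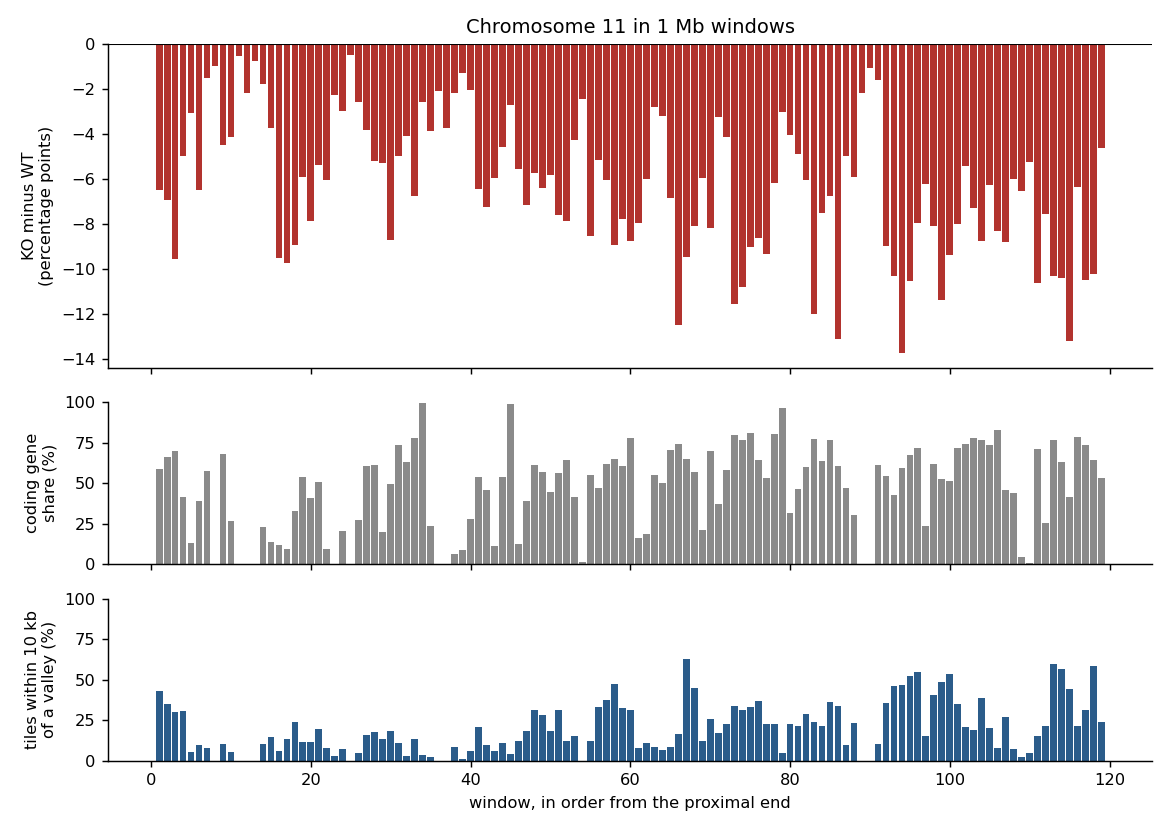
The 119 windows of chromosome 11 in order from the proximal end: KO minus WT in percentage points (top), share of bases in coding genes (middle) and share of tiles within 10 kb of a valley tile (bottom), both in percent. Losses deepen towards the distal end, with the largest, -13.7 points, in window 94.

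The gap widened towards the distal end. With the windows cut into 3 stretches, a split made after the values were seen, the proximal 40 windows differed by -4.70 points, which is 0.596 points less loss than on the other autosomes. The middle 40 differed by -6.76 points and the distal 39 by -8.04 points, gaps of -1.46 and -2.74 points. After reweighting for gene share and valley distance the 3 gaps were 0.370, -0.642 and -1.53 points. Of the 15 windows that lost 10 points or more, 12 were in the distal stretch, 3 in the middle and 0 in the proximal one. Gene share was 36.4% in the proximal stretch, 55.5% in the middle and 55.3% in the distal one, while valley tiles made up 1.08, 2.11 and 2.995%. The middle and distal stretches were thus alike in gene share and differed in valley tiles.

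The window with the largest fall, chr11:96000001-97000000, holds the HoxB cluster, the homeobox genes that pattern the body axis. It had 46.1, 45.2 and 46.0% in the KO samples and 60.1, 59.3 and 59.1% in the WT samples, and ranked 8 among all 2407 windows. Without this window the gap of chromosome 11 was -1.22 points. The window chr11:117000001-118000000, with Septin9, differed by -13.2 points, and chr11:88000001-89000000, with Cuedc1, by -13.1 points. The window with Ntn1 and Ccdc42, chr11:68000001-69000000, differed by -12.5 points although 16.2% of its tiles lay within 10 kb of a valley, a lower share than in the windows before it. The window with Tbx2 and Bcas3 differed by -12.0 points, that with Hic1 by -11.6, that with Plekhh3 by -11.4, that with Nxn by -10.8, that with Cdc42ep4 by -10.6 and that with Tbkbp1 by -10.5 points. Leaving out these 10 windows took the gap to -0.737 points. They were picked for their large losses and the other autosomes kept theirs. A smaller gap, also without the HoxB window, was thus fixed in advance and nothing is read from it.

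The windows with the smallest losses were gene deserts. Those starting at 27000001, 13000001, 15000001, 10000001 and 92000001 differed by -0.509, -0.545, -0.746, -0.97 and -1.08 points. None of the 5 holds a coding gene or a tile within 10 kb of a valley. In the window at 27000001 the KO samples had 61.7, 62.5 and 61.8% and the WT samples 63.2, 62.3 and 62.0%, and the groups overlapped. Their direction depends on the scale: with each sample centred on its median tile, which moves all differences up by 4.89 points, each of the 5 was higher in KO, by 3.81 to 4.38 points, and scaling samples to one mean level gave 3.73 to 4.53 points.

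Single tiles were called at an adjusted p under 0.05 (limma, over all tiles) and a difference of at least 10 points. On chromosome 11, 21411 tiles were lower in KO (20.7%, against 16.2% of all tiles) and 59 were higher (0.0571%, against 0.0796% of all tiles). Lower tiles were 99.7% of the calls, and 88.1% with samples scaled to one mean level. The median called fall was -16.0 points. Chromosome 11 held 258 of the 2584 called tiles that lost at least 50 points (9.98%), and 146 of the 1247 tiles with a mean under 10% in KO and of at least 50% in WT (11.7%), with 5.28% of all tiles.

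Merged over gaps of 1 kb, the lower tiles formed 6962 regions that cover 23.4 Mb, of which 333 held at least 10 called tiles. Region values below average the called tiles. The region with the most called tiles, 64 kb long, lay in Spred2, an inhibitor of Ras-ERK signalling (chr11:19937001-20001000), with 51.5, 51.9 and 54.0% in the KO samples and 76.1, 77.8 and 76.6% in the WT samples. A 53 kb region in Bcas3 averaged 51.8% in KO and 71.9% in WT samples. A 49 kb region over Tmem104 and the end of Grin2c, an NMDA receptor subunit, averaged 37.3% in KO and 69.0% in WT samples. Septin9, a cytoskeletal GTP-binding protein, held 2 regions of 45 and 37 kb, at 39.99 and 41.7% in KO and 63.4 and 66.0% in WT samples. The remaining 3 of the 8 regions with the most called tiles were in Cuedc1 (42 kb, 36.2% in KO and 63.5% in WT), in Ntn1, a guidance cue, and Stx8 (39 kb, 54.9% in KO and 79.2% in WT) and in Emid1 (40 kb, 51.5% in KO and 74.4% in WT). In all 8 regions each KO sample lay below each WT sample. Only tiles called lower enter these averages, so this was nearly fixed by the choice and nothing is read from it.

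The region over the HoxB cluster was outside these 8 and was picked after its values were seen. From chr11:96320001 to 96352000, over Hoxb3 and Hoxb4, all 32 tiles were called lower. They averaged 1.52, 1.98 and 1.72% in the KO samples and 59.9, 60.4 and 58.8% in the WT samples. The groups lay far apart, and the 3 samples of each were close together.

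**Figure D4:**
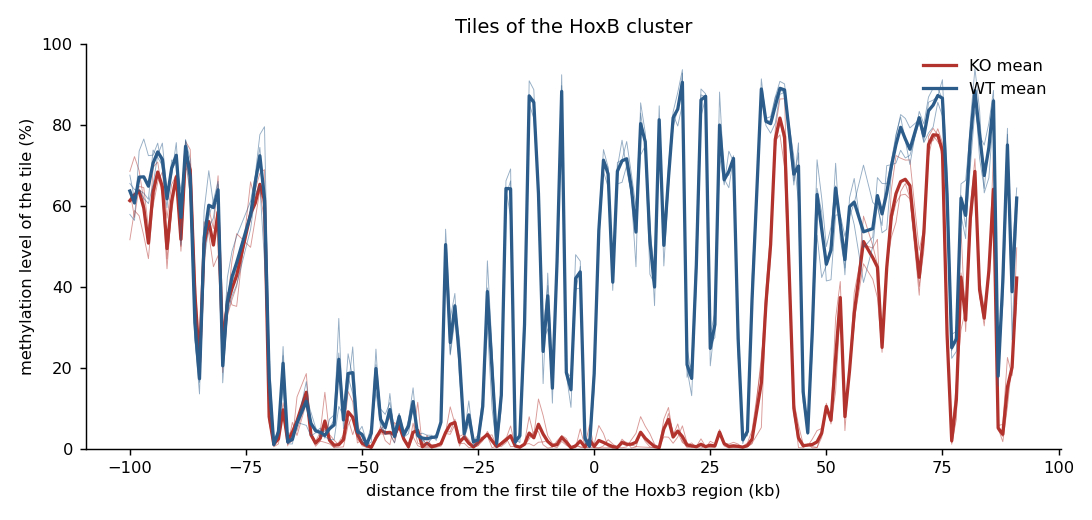
Methylation level of each 1 kb tile around the HoxB cluster, in percent, against distance in kb from the first tile of the Hoxb3 region; thick lines are group means and thin lines the 3 KO (red) and 3 WT (blue) samples. Over the 32 kb from 0, the KO samples averaged 1.74% and the WT samples 59.7%.

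Rises were few and short. Merged, the 59 higher tiles made 55 regions, 4 of them with 2 tiles. One lay in Kcnh6, a potassium channel gene (chr11:106031001-106033000), with 67.4, 46.0 and 45.0% in the KO samples and 33.4, 28.9 and 21.1% in the WT samples. The other three lay between genes and averaged 70.5, 74.8 and 74.1% in KO and 57.3, 59.6 and 61.9% in WT samples.

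Gene bodies were averaged over tiles at least 1000 bp inside a gene. Of 1194 measured bodies, 749 were called lower by at least 5 points (62.7%, where 53.3% of all bodies were) and 0 were called higher. At an unadjusted p under 0.05 (limma), 1 was higher. With samples scaled to one mean level, 283 were called lower and 47 higher, which puts 85.8% of calls on the lower side. Among the largest falls were genes of transcriptional regulators. Hoxb3 had 1.68, 1.81 and 1.77% in the KO samples and 51.5, 51.9 and 50.6% in the WT samples. Tbx2, a T-box developmental transcription factor, had 1.67, 1.13 and 2.78% in the KO samples and 50.3, 55.8 and 56.8% in the WT samples. Both bodies were almost unmethylated in every KO sample. Hic1, a zinc finger repressor, averaged 12.8 ± 0.752% in KO and 58.8 ± 0.474% in WT samples (SD, n = 3 each), and Plekhh3 averaged 12.1 ± 2.41% in KO and 64.7 ± 2.87% in WT samples.

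The next bodies kept more methylation in KO. Tbkbp1, a partner of the kinase TBK1, averaged 18.8% in KO and 52.6% in WT samples. Prcd, a photoreceptor disc protein, averaged 26.5% in KO and 58.4% in WT samples, and Tac4, a tachykinin precursor, 30.4% in KO and 61.5% in WT. Fam171a2 stood at 40.4% in KO and 68.7% in WT, and P3h4, of the prolyl 3-hydroxylase family, at 52.2% in KO and 80.2% in WT. In all 9 bodies named here the KO samples lay below the WT samples. The rule of naming asked for groups that did not overlap, so nothing is read from this.

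**Figure D5:**
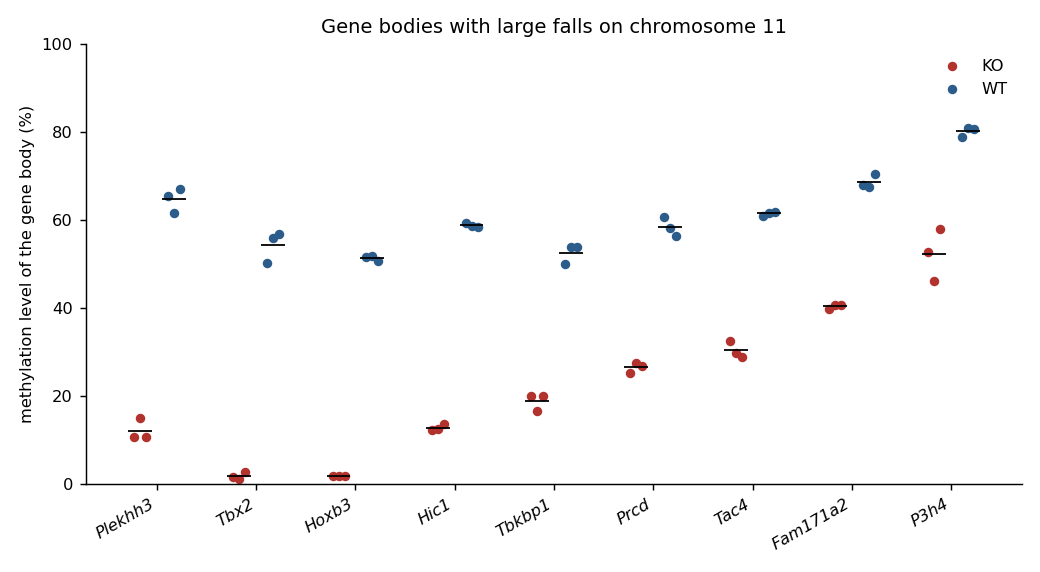
Methylation level, in percent, of 9 gene bodies of chromosome 11 among those with the largest falls; points are the 3 KO (red, left) and 3 WT (blue, right) samples and lines their means. Tbx2 and Hoxb3 are under 3% in all KO samples and above 50% in all WT samples.

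Gene starts, averaged over tiles within 1000 bp of a RefSeq start, fell in a share close to the background. Of 1552 measured starts of 1263 genes, 287 were called lower by at least 10 points (18.5%, where 18.2% of all starts were). Starts of a gene can share tiles, so counts of starts are not counts of separate falls. The largest fall was at the start of 4933428G20Rik, whose CpG-dense promoter is shown above. This start had 10.1, 15.5 and 17.4% in the KO samples and 76.1, 78.9 and 81.9% in the WT samples. The Septin9 start at 117332313 had 5.04, 6.91 and 3.54% in the KO samples and 51.5, 52.7 and 50.7% in the WT samples. A second Septin9 start, at 117331715, lies close enough to share tiles and averaged 13.9% in KO and 51.8% in WT samples. Both lie within the gene, inside the 45 kb region of Septin9 given above, so they are not results separate from it. The Cuedc1 start, whose promoter is CpG-poor, averaged 26.7% in KO and 74.0% in WT samples. It too lies within its gene, inside the 42 kb region of Cuedc1 given above.

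Adam19, a membrane metalloprotease, has 2 named starts. That at 46054502 had 29.4% in KO and 65.5% in WT samples, and that at 46055984 had 2.67% in KO and 38.3% in WT samples. These 2 starts lie close enough to share tiles, so their falls are not separate results. Dnah2, an axonemal dynein chain, averaged 19.4% in KO and 55.5% in WT samples. Ebf1, a transcription factor best known from B cell development, had 3.58, 2.99 and 2.06% in the KO samples and 39.6, 33.6 and 32.5% in the WT samples. The promoters of these starts held 5 to 42 CpGs in 300 bases. Each start value averages 3 tiles, a wider stretch than the promoter, so none is a value of the promoter sequence alone.

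A single start was called higher, while 6 were higher at an unadjusted p under 0.05 (limma). Grb10, an imprinted gene whose protein dampens insulin and growth factor receptors, had 58.4, 57.3 and 57.0% in the KO samples and 49.3, 46.8 and 42.1% in the WT samples at the start at 12027971. Rises were called at 0.0407% of all starts. Without WT replicate 3 the difference was 9.50 points, under the limit of 10. The value of this start averages 3 tiles. Of these, chr11:12026001-12027000 stood at 60.1% in KO and 32.4% in WT samples, a difference of 27.7 points. That tile lies inside the gene and outside the promoter printed above, so the rise is not a value of that sequence alone. The body of Grb10 did not pass the limit for a fall, with 63.9% in KO and 68.8% in WT samples. Ddc, its imprinted neighbour and the enzyme that makes dopamine, fell in its body, with 42.8 ± 0.15% in KO and 66.8 ± 0.77% in WT samples, and at its start at 11890408, with 44.5% in KO and 60.2% in WT samples.

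The other genes were read by lists of chromosome 11 genes, which were drawn up with earlier results of these data known. A list member is said to have fallen or risen if it was called lower or higher. Across all measured bodies of the chromosome the median difference was -6.47 points, and across its starts it was -4.79 points. The share called lower was 62.7% of the bodies of chromosome 11 and 53.3% of all bodies, and 18.5% of its starts and 18.2% of all starts. Of 23 measured developmental transcription factors, 18 bodies fell and 0 rose, with a median of -11.2 points. Beside Tbx2 and Hic1, Bcl11a, a zinc finger factor of blood and brain, stood at 55.0% in KO and 69.9% in WT samples. Of 29 starts of 17 genes in this list 6 fell, a share near the 18.5% of all starts of the chromosome. Among them was Tbx4, a T-box factor of limb and lung, with 20.8% in KO and 43.8% in WT samples.

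In the HoxB cluster 2 of 3 measured bodies and 2 of 3 measured starts fell, where 62.7% of the chromosome's bodies and 18.5% of its starts did. Hoxb6 stood at 1.77% in KO and 12.4% in WT samples in its body, and Hoxb1 at 1.46% in KO and 29.3% in WT samples at its start. Of 5 Polycomb gene bodies 4 fell, against the same 62.7%, with Cbx2 at 67.7% in KO and 82.7% in WT samples and Ezh1 at 62.4% in KO and 73.4% in WT samples. The start of Cbx8, a chromobox subunit of Polycomb complexes, stood at 2.72% in KO and 28.4% in WT samples, 1 of 2 Polycomb starts that fell among 4.

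Of 24 vascular and endothelial gene bodies 21 fell, with a median of -10.4 points, where 62.7% of the chromosome's bodies fell. Flt4, the receptor for lymphatic growth factors of the VEGF family, had 43.4, 41.8 and 44.4% in the KO samples and 61.4, 61.3 and 63.7% in the WT samples. Ntn1 stood at 62.0% in KO and 77.4% in WT samples and Cd300lg, an endothelial surface protein, at 53.1% in KO and 69.9% in WT samples. Of 21 vascular starts of 18 genes 8 fell, where 18.5% of the chromosome's starts did. Among them were Sparc, a matrix protein, with 26.6% in KO and 47.6% in WT samples, and Ace, the angiotensin-converting enzyme, with 19.7% in KO and 37.2% in WT samples.

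Among signalling genes the counts again stand beside 62.7% of bodies and 18.5% of starts called lower on the chromosome. Of 9 Wnt pathway bodies 8 fell and 0 of 9 starts did, with Axin2, a feedback inhibitor of the pathway, at 49.6% in KO and 70.6% in WT samples and Tcf7, a nuclear effector, at 56.8% in KO and 70.8% in WT samples in their bodies. Of 23 bodies of growth factor and cytokine genes 20 fell, and of 34 starts of 25 genes 10 fell and 1 rose, that of Grb10. Spred2 stood at 58.3% in KO and 77.0% in WT samples in its body. The start of Map2k6, a kinase of the p38 cascade, at 110478515 stood at 10.6% in KO and 37.7% in WT samples, and that of Erbb2, a receptor tyrosine kinase, at 11.9% in KO and 27.6% in WT samples.

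For clustered families of genes used in other tissues the counts were as follows, where 62.7% of the bodies and 18.5% of the starts of the chromosome were called lower. Of 16 keratin bodies 7 fell, with a median of -3.81 points, and Krt24 stood at 50.99% in KO and 62.9% in WT samples. Of 40 keratin and keratin-associated starts 4 fell, with Krt27 at 53.0% in KO and 75.1% in WT samples. Olfactory receptors had 1 of 3 bodies and 0 of 71 starts lower, Ccl chemokines 0 of 3 and 0 of 6, muscle myosin heavy chains 1 of 6 and 0 of 6, and Cd300 receptors 2 of 9 and 0 of 8. Schlafen genes had 5 of 7 bodies and 5 of 9 starts lower, with the Slfn9 start at 17.9% in KO and 36.3% in WT samples.

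Of 20 Zfp bodies 8 fell and of 23 Zfp starts of 17 genes 2 fell, again beside 62.7% of the chromosome's bodies and 18.5% of its starts. Lists of under 10 genes give coarse shares. For GABA and glutamate receptor genes 2 of 7 bodies and 2 of 6 starts, of 4 genes, fell. For imprinted genes 2 of 3 bodies and 1 of 7 starts, of 4 genes, fell, with Grb10 higher. The single measured ribosomal protein body and the single globin and erythroid body fell, with 0 of 6 and 0 of 3 starts. The body calls of the Schlafen, Zfp, ribosomal and erythroid genes with the smallest p, and of Krt12, Krt23, Myh3, Cd300a, Olfr1393, Gabra6, Grin2c, Commd1 and Fbxw11, were lost when samples were centred or scaled to one mean level, for Fbxw11 by scaling alone.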

How the data were processed

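Tagmentation-based whole-genome bisulfite sequencing of sorted lung endothelial cells gave 3 KO and 3 WT samples, per the labels' protocols. The submitters' processing notes name BWA 0.7.8 and the build mm10. The authors deposited a methylation level, a fraction between 0 and 1, for each 1000 bp tile and sample, per the file headers; no source used here states how methylation was called, smoothed or filtered by coverage. Levels were multiplied to percent. Depth is unknown, so no counting interval was computed.

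Tiles, 1 Mb windows with at least 100 tiles, bodies with at least 3 tiles and starts were fitted on all autosomes with limma 3.58.1 (R 4.3.3), with a variance trend and Benjamini-Hochberg adjustment at 0.05. Windows differ little in variance, so their calls mainly test the shift that samples share. Levels without read counts allow no logistic model of counts. Starts came from a RefSeq promoter table, and genes from a RefSeq gene table, both of GRCm38.p6, which shares its coordinates with mm10. Starts on chromosome 18 were not analysed here. Strata had limits at 0, 1, 3, 5, 10, 20, 50, 100 and 200 kb and at 0, 20, 40, 60 and 80% gene share. On 100000 simulated tiles the fit called 0.237% of tiles with no loss, and 22.8, 85.5 and 98.0% of those with losses of 10, 20 and 30 points. The simulated noise was independent between tiles and most simulated tiles had no loss. In the data the noise of adjacent tiles is correlated and the median difference over all tiles was -4.05 points, so these rates need not hold there. All other values and the figures were made in Python 3.11.15 (pandas 2.3.3, numpy 2.4.6, matplotlib 3.10.9).

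The members and lists were chosen with earlier results of these data known. The genes, windows and regions named followed a rule of size: the 10 windows with the largest and 5 with the smallest difference, the 8 regions with the most called tiles and higher ones with at least 2, the 10 bodies and 8 starts with the largest falls and up to 5 with the largest rises without overlap, and up to 3 of each list with the smallest p; 1 of these bodies is not reported here. Alternatives were other scalings, summaries, valley limits, window sizes, limits and each sample left out.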

Additional observations from a re-analysis of the deposited data

How the results depend on the processing

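The mean difference of chromosome 11 was -6.02 points as a median over tiles, -1.69 with samples centred and -1.32 with samples scaled to one mean level. Its gap to the other autosomes was -0.737 without the 10 windows of largest loss and -1.22 without the HoxB window, the last chosen after seeing the data. Both settings took large losses from chromosome 11 alone, so a smaller gap was fixed in advance. Standardised for valley distance, the gap was -0.743 with valleys under 5% and -0.736 with valleys of at least 2 tiles. Standardised for both, it was -0.279 in the linear model of windows, -0.722 with samples scaled, and, in alternatives added after seeing the data, -0.570 with the number of valley tiles, 0.370 in the proximal and -1.53 in the distal stretch. Centred and scaled, tiles called lower numbered 9336 and 9358, tiles called higher 718 and 1268, windows called lower 15 and 15, gene bodies called lower 305 and 283, and gene starts called lower 127 and 172. At a limit of 20 points 6492 tiles were lower and 5 higher, and at 10 points 307 bodies were lower. Windows of 0.5 and 2 Mb gave 148 and 41 called lower. The windows at 27000001, 13000001, 15000001, 10000001 and 92000001 turned to 4.38, 4.35, 4.15, 3.92 and 3.81 points when centred and to 4.53, 4.41, 4.21, 3.89 and 3.73 when scaled. Centring subtracts a constant from all tiles of a sample. Scaling multiplies them by a factor, so its effect grows with the level of a tile. The cause of the other changes was not tested.

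With each sample left out in turn, the gap ran from -1.35 to -1.24 points, the gap standardised for both from -0.677 to -0.619, and the tiles called lower from 16810 to 19626. Of 588 such comparisons over 98 named windows, genes and regions, 7 lost their call, for the bodies of Cd300a and Olfr1393 and the starts of Grb10 and Zfp385c. The KO and WT samples share numbers, but their deviations correlated at 0.00563, -0.00321 and 0.0110 for the 3 same-numbered pairs, so the numbers were not taken to pair samples; with the replicate block the gap was -1.29, the gap standardised for both -0.647, and 21431 tiles, 78 windows, 750 bodies and 286 starts were lower. Depth is unknown, so it cannot be said which tiles rest on few reads.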
